A study of Homo sapiens with 12 samples.

Results

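Matrix genes were followed through 4 groups of arrays, 9 in all: the small proteoglycans DCN (decorin), LUM (lumican) and BGN (biglycan), the type I collagen chains COL1A1 and COL1A2, the type IV collagen chains COL4A1 and COL4A2, and the matrix glycoproteins SPARC and FN1 (fibronectin). They are 9 of the 20046 genes named by a probe with a single gene symbol, and all 16 probes annotated to them, of 47323 on the array, were read on every array. The genes were chosen by their symbols, with the signals and crizotinib changes of these same arrays already known, so their levels and changes are given as a description, without p-values. SPARC and FN1 are neither proteoglycans nor collagens.

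Both lines, SNU-5 and MKN45, come from human gastric cancers and carry an amplified MET gene, whose receptor kinase the drug crizotinib blocks. Total RNA was labelled and read on HumanHT-12 v4 bead arrays of Illumina, with 3 arrays each of untreated SNU-5, SNU-5 with 1 µM crizotinib, untreated MKN45 and MKN45 with 1 µM crizotinib, the treated cells after 24 h. The question put to the arrays was which genes the inhibitor changes in each line. SNU-5 cells grew in Iscove's modified Dulbecco's medium and MKN45 cells in RPMI-based medium, both with serum, so that line and medium cannot be told apart. Neither the labels nor the study says that the 3 replicates of a group were separate cultures, and the p-values given for other genes may therefore measure technical spread only. In a bulk RNA sample, fewer cells of a type and less RNA per cell cannot be told apart. Untreated arrays enter both the drug comparison and the comparison of lines, which therefore share samples.

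Decorin, lumican and biglycan belong to the small leucine-rich proteoglycans, secreted proteins that bind collagen fibrils and help to set fibril diameter and spacing. Decorin also binds growth factors and several receptor tyrosine kinases, MET among them. Type I collagen, the main fibrillar collagen of connective tissue, is a triple helix of COL1A1 and COL1A2 chains and is made chiefly by fibroblasts. Type IV collagen, built from COL4A1 and COL4A2 chains in most tissues, forms the network of basement membranes on which epithelia rest. SPARC is a collagen-binding glycoprotein that modulates contacts between cells and matrix, and fibronectin links collagens to integrins.

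Levels are log2 signals after background correction and quantile normalization, on a scale whose lower end lies near 4. A probe counts as detected on an array at a detection p under 0.05, the p being the share of negative control probes at least as bright. The dimmest detected signal of an array lay between 4.84 and 4.93, and between 18998 and 20248 probes were detected per array. SNU-5 control replicate 1 stood apart from its group, with a mean raw signal of 557 against 328 and 346 for the rest of that group and a correlation of 0.952 with replicate 3, where the correlations within every other group were at least 0.98. Its part in the results was not tested, and the values without it are given below. Signals of different probes are not comparable, so levels are compared only within a probe.

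Of the 7 epithelial markers, EPCAM, KRT8, KRT18 and KRT19 were detected on all 12 arrays, and ESRP1 on every MKN45 array and on no SNU-5 array. CDH1 was detected on 1 SNU-5 control (group mean 4.6) and on all 3 SNU-5 crizotinib arrays (5.6). In MKN45 CDH1 was detected on every array, with means of 11.67 in controls and 12.3 with crizotinib. CLDN4 was detected on every SNU-5 array, on 1 MKN45 control and on all 3 MKN45 crizotinib arrays. The summed signal of the epithelial list lay between 31900 and 42300 in SNU-5 controls, between 33900 and 37100 with crizotinib, between 30000 and 33700 in MKN45 controls and between 21600 and 22700 with crizotinib. Of the 6 endothelial markers, CDH5, KDR, VWF and CLDN5 were detected on no array. PECAM1 was detected on 2 SNU-5 controls, at most at 5.03, and on no other array. TEK was detected on 1 SNU-5 control and 1 SNU-5 crizotinib array, at most at 5.23. The endothelial list summed to between 127 and 147 in every group. Among 5 leukocyte markers with a probe, PTPRC and CD3E were detected on no array and CD68 on all of them. CD14 was detected on all 6 SNU-5 arrays, with a mean of 10.41 in controls and 9.41 with crizotinib, and on 2 arrays of each MKN45 group, with means of 5.02 and 5.03. CD2 was detected on 2 SNU-5 controls and 3 MKN45 controls and on no crizotinib array. The leukocyte list summed to between 1470 and 1950 in SNU-5 controls, between 989 and 1510 with crizotinib, between 334 and 531 in MKN45 controls and between 423 and 741 with crizotinib, and its part in the results was not tested.

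Across the 16 probes, 56 of 192 probe-by-array values were detected. A total of 9 probes for 6 genes were detected on at least 3 of the 12 arrays, which was required for a gene to be tested: 2 each for DCN, LUM and COL1A2 and 1 each for COL1A1, COL4A1 and COL4A2. BGN, SPARC and FN1 had no such probe.

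**Figure D1:**
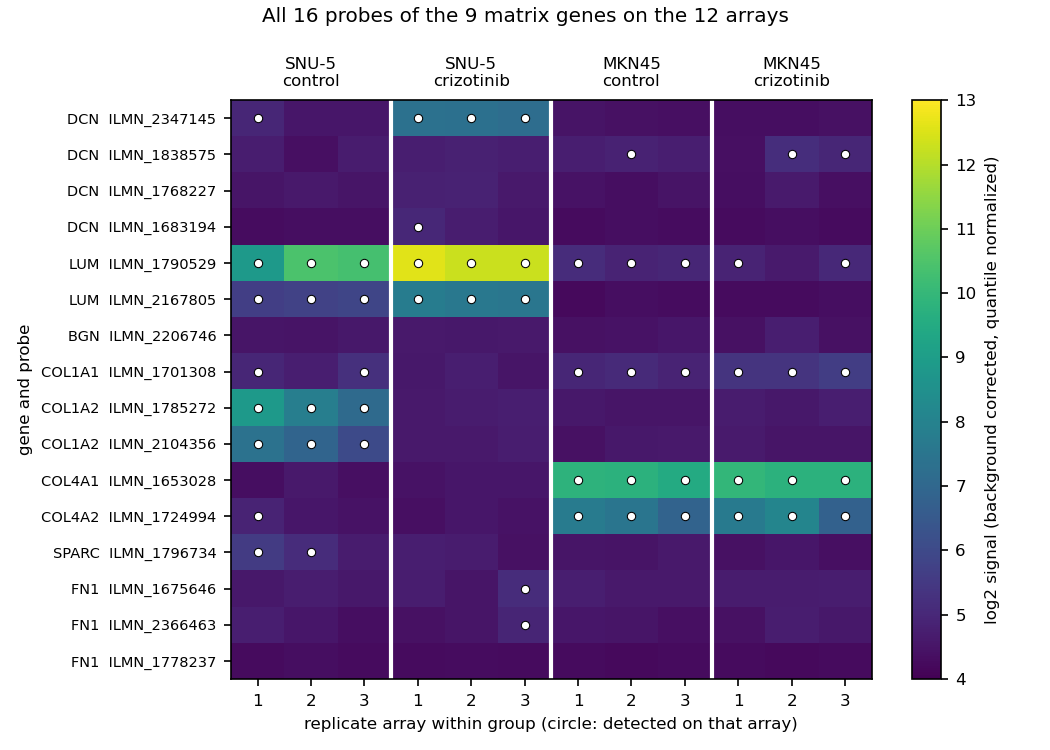
Log2 signal (colour, background corrected and quantile normalized) of all 16 probes of the 9 genes (rows) on the 12 arrays (columns, by group and replicate), with a white circle where the probe was detected. LUM is bright in SNU-5 and brighter with crizotinib, the brightest DCN probe is detected on all 3 arrays of SNU-5 with crizotinib, COL1A2 on the 3 untreated SNU-5 arrays, and COL4A1 on the 6 MKN45 arrays.

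Lumican was the gene of this set most clearly seen in SNU-5, and its signal was higher with crizotinib at both probes. At the brighter probe, ILMN_1790529, the SNU-5 controls read 8.84, 10.46 and 10.35 and the crizotinib arrays 12.58, 12.28 and 12.29. The groups did not overlap, as was so for 47.5% of all genes, and control replicate 1 lay well below the other controls. The difference was 2.50 on the log2 scale (SE 0.33, 95% confidence interval 1.80 to 3.20, n = 3 and 3), or 5.65-fold. At the second probe, ILMN_2167805, the controls read 5.68, 5.78 and 5.88 and the crizotinib arrays 7.78, 7.62 and 7.55, a difference of 1.86 (SE 0.13, 95% confidence interval 1.58 to 2.15). Without SNU-5 control replicate 1, the difference at the brighter probe was 1.98 in place of 2.50.

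In MKN45, lumican stayed near the detection limit. The brighter probe read 5.16, 4.91 and 4.98 in controls and 4.88, 4.66 and 5.05 with crizotinib, detected on all 3 controls and on 2 of the 3 treated arrays. These groups overlapped, and the difference was -0.15 (SE 0.33, 95% confidence interval -0.86 to 0.55). The second probe was detected on no MKN45 array and lay between 4.23 and 4.33. In the order of the 4 groups, SNU-5 with crizotinib stood above untreated SNU-5, which stood above both MKN45 groups, and the MKN45 groups did not differ beyond their spread. Between untreated lines the brighter probe was higher in SNU-5 by 4.87 (SE 0.33), or 29.2-fold, and the second probe at least 1.89-fold. A fold is given as "at least" where a probe was detected on no array of the dimmer group, and is then taken against the dimmest detected signal of those arrays or the probe's own signal where that is higher.

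Decorin was near background in untreated SNU-5 and detected on every crizotinib array. Its brightest probe, ILMN_2347145, read 4.96, 4.53 and 4.53 in the controls, of which only replicate 1 was detected, and 7.34, 7.33 and 7.20 with crizotinib. The difference was 2.62 (SE 0.15, 95% confidence interval 2.30 to 2.93) between group means of 7.29 and 4.67, the lower of them below the dimmest detected signal, so no fold is given. Without SNU-5 control replicate 1 the difference was 2.76. In MKN45 the same probe was detected on no array, with 4.48, 4.40 and 4.36 in controls and 4.35, 4.33 and 4.39 with crizotinib. The MKN45 difference was -0.06 (SE 0.15, 95% confidence interval -0.38 to 0.26). SNU-5 with crizotinib thus stood above the other groups, and untreated SNU-5 and untreated MKN45 differed by 0.26 (SE 0.15), which was not called.

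The 4 decorin probes did not report the same size of change. ILMN_1683194 lay between 4.30 and 4.35 in SNU-5 controls and between 4.55 and 4.99 with crizotinib, and was detected on 1 of the treated arrays. ILMN_1768227 lay between 4.50 and 4.62 and between 4.63 and 4.86 and was detected nowhere. ILMN_1838575 was detected on no SNU-5 array, and its SNU-5 difference of 0.17 (SE 0.19, 95% confidence interval -0.24 to 0.59) was not called. The same probe was detected on 3 MKN45 arrays, control replicate 2 at 4.87 and crizotinib replicates 2 and 3 at 5.18 and 4.95, just above the detection limit. The MKN45 controls otherwise read 4.77 and 4.74 and the remaining treated array 4.37, so that the groups overlapped, and the difference of 0.04 (SE 0.19, 95% confidence interval -0.37 to 0.45) was not called. All 4 probes were higher on every crizotinib array than on every SNU-5 control, and all 4 overlapped between the MKN45 groups. Over all genes, the groups did not overlap for 47.5% in SNU-5 and 49.1% in MKN45, and nothing is read from these orders. The large decorin difference therefore rests on 1 probe, each of the others being detected on at most 1 SNU-5 array.

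LUM and DCN are neighbours on chromosome 12, LUM at 91102629 to 91111494 and DCN at 91140484 to 91182817 (GRCh38.p14). They lie 28989 bases apart, with 0 protein-coding genes starting between them, in a run with 2 further genes of the same family, EPYC (epiphycan) and KERA (keratocan), on the LUM side. EPYC was detected on no array and lay between 4.25 and 4.36. KERA was detected on no SNU-5 array, where it lay between 4.58 and 4.80, on all 3 MKN45 controls (4.84 to 5.35) and on 1 MKN45 crizotinib array. The neighbours on the LUM side thus did not show the SNU-5 pattern of LUM and DCN at these probes.

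Biglycan, on chromosome X at 153494980 to 153509546, was detected on none of the 12 arrays. Its single probe lay between 4.46 and 4.59 in SNU-5 controls, between 4.57 and 4.62 with crizotinib, between 4.39 and 4.53 in MKN45 controls and between 4.41 and 4.75 with crizotinib. No difference of this gene was detectable at these signals.

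Because lumican, decorin and type I collagen are best known from fibroblasts, 12 fibroblast markers were read beside them. In untreated SNU-5, 1 marker was detected on all 3 arrays and 10 on none, and with crizotinib 3 and 6. The markers PDGFRA, PDGFRB, THY1, FBN1 and LOX were detected on no array of either line, while ACTA2, a smooth muscle actin, was detected on all 12 arrays. TAGLN was detected on 1 SNU-5 control and on all 3 crizotinib arrays, COL5A2 on 0 and 3, and COL3A1, FAP and POSTN on 0 and 1. In MKN45, ACTA2 and TAGLN were detected on all arrays, and 10 markers were detected on no control and 8 on no crizotinib array. The summed fibroblast signal lay between 1220 and 1260 in SNU-5 controls and between 1640 and 1820 with crizotinib, and in MKN45, where the brightest DCN probe was undetected, between 611 and 1020 and between 1900 and 2720. The largest part of each sum was ACTA2, with means of 9.93 and 10.45 in SNU-5 and 8.95 and 10.96 in MKN45, without and with crizotinib. The part of the fibroblast markers in the result was not tested beyond these values.

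The type I chain COL1A2 moved opposite to the proteoglycans in SNU-5. Its brighter probe, ILMN_1785272, read 8.85, 7.84 and 7.12 in the controls and 4.61, 4.70 and 4.75 with crizotinib, where it was detected on no array. The controls varied widely, with an SD of 0.87, but all of them lay far above the treated arrays. The fitted difference was -3.25 (SE 0.30, 95% confidence interval -3.90 to -2.60), and against the detection limit the signal was at least 8.28-fold lower with crizotinib. The second probe, ILMN_2104356, read 7.39, 6.89 and 6.03 in controls and 4.62, 4.61 and 4.71 with crizotinib, at least 3.69-fold lower. Without SNU-5 control replicate 1, the highest control at both probes, the difference at the brighter probe was -2.79.

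COL1A2 was detected on no MKN45 array. The brighter probe read 4.58, 4.51 and 4.52 in MKN45 controls and 4.70, 4.59 and 4.74 with crizotinib. The treated values lay above the controls without overlap, but below the detection limit throughout, and the difference of 0.14 (SE 0.30) was not called. Untreated SNU-5 was thus the only group with measurable COL1A2, at least 8.4-fold above untreated MKN45 at the brighter probe and at least 3.74-fold at the second. The other 3 groups were all undetected and have no order.

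COL1A1, the partner chain, lay near the detection limit in all groups. Its single probe read 4.95, 4.74 and 5.24 in SNU-5 controls, detected on 2 arrays, and 4.58, 4.75 and 4.51 with crizotinib, detected on none. These groups overlapped, and the difference was -0.36 (SE 0.16, 95% confidence interval -0.71 to -0.01), at least 1.07-fold lower. In MKN45 it was detected on all 6 arrays, with 4.98, 5.07 and 4.89 in controls and 5.36, 5.35 and 5.65 with crizotinib. The MKN45 groups did not overlap, and the difference of 0.47 (SE 0.16, 95% confidence interval 0.12 to 0.82), or 1.38-fold, was below the fold required for a call. The untreated lines differed by -0.01 at this probe (SE 0.16, 95% confidence interval -0.35 to 0.34). COL1A1 lies on chromosome 17 at 50184101 to 50201631 and COL1A2 on chromosome 7 at 94394895 to 94431227.

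**Figure D2:**
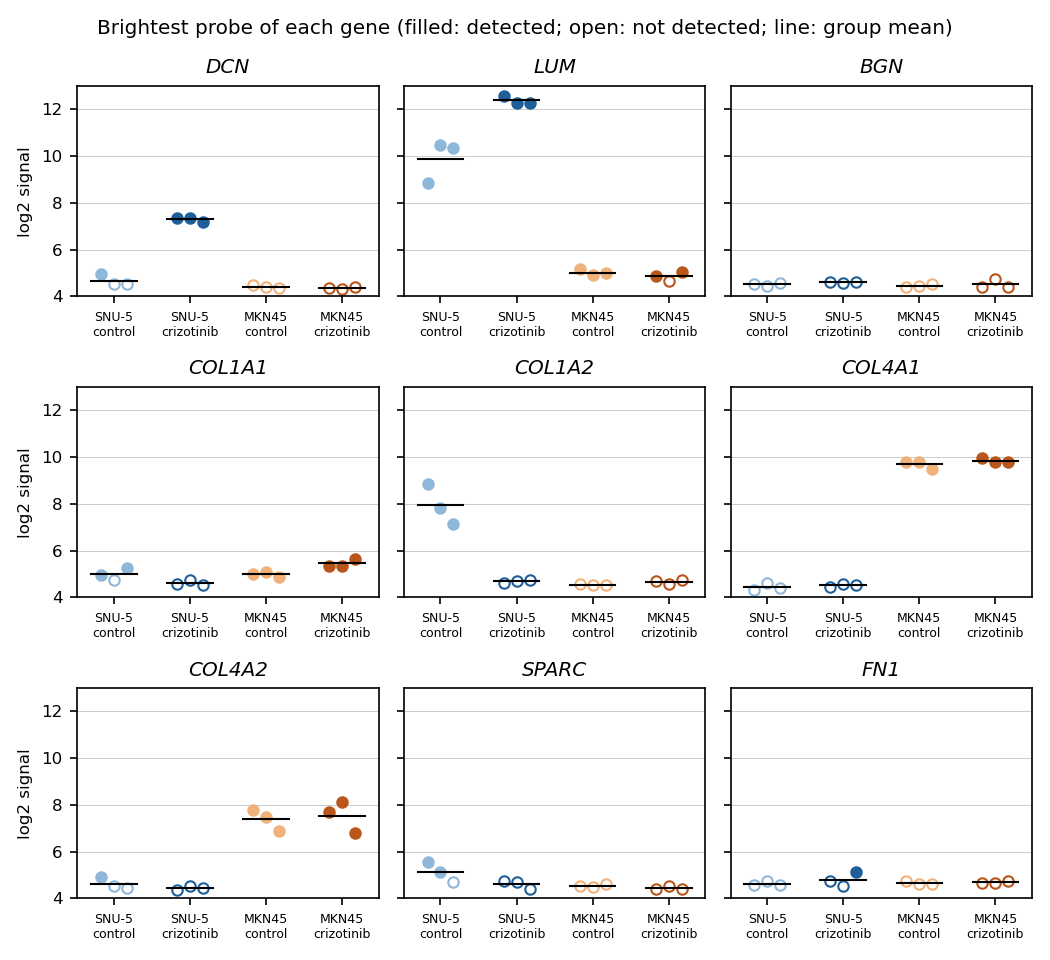
Log2 signal (vertical axis) of the brightest probe of each of the 9 genes on the 12 arrays, by group, filled where detected and open where not, with a line at each group mean. COL1A2 stands above the detection limit in untreated SNU-5 alone, and COL4A1 and COL4A2 stand high in both MKN45 groups.

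The type IV chains were seen in MKN45, with and without the drug, and hardly in SNU-5. COL4A1 was detected on all 6 MKN45 arrays and on no SNU-5 array. It read 9.81, 9.77 and 9.50 in MKN45 controls and 9.96, 9.79 and 9.78 with crizotinib, against 4.32, 4.63 and 4.38 in SNU-5 controls and 4.43, 4.56 and 4.54 with crizotinib. Untreated MKN45 was at least 28.1-fold above untreated SNU-5. With crizotinib the MKN45 level differed by 0.15 (SE 0.15, 95% confidence interval -0.17 to 0.46), with overlapping groups.

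COL4A2 gave the same order with more spread. It read 7.76, 7.49 and 6.88 in MKN45 controls and 7.70, 8.11 and 6.78 with crizotinib. In SNU-5 it read 4.90, 4.53 and 4.45 in controls, of which replicate 1 was detected, and 4.36, 4.53 and 4.45 with crizotinib. The difference of untreated SNU-5 from untreated MKN45 was -2.75 (SE 0.30), with no fold given because 2 of the 3 SNU-5 controls were undetected, and no array of one line reached the other. The crizotinib difference was 0.15 in MKN45 (SE 0.30, 95% confidence interval -0.49 to 0.79) and -0.18 in SNU-5 (SE 0.30), neither called.

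COL4A1 and COL4A2 lie head to head on chromosome 13, COL4A1 at 110148963 to 110307157 and COL4A2 at 110307284 to 110513209, and are read in opposite directions from start sites 126 bases apart. The stretch between the starts, chr13:110307158-110307283 (GRCh38.p14, sequence from RefSeq, written on the strand of COL4A2), is shown because both genes of the pair share it and both were seen in MKN45. It lies outside both transcripts, and 80.2% of its bases are G or C. The capitals mark 2 motifs searched on both strands, which do not overlap, CCAAT at bases 22 to 26 and GGGCGG at bases 62 to 67.
COL4A1 and COL4A2 shared start region: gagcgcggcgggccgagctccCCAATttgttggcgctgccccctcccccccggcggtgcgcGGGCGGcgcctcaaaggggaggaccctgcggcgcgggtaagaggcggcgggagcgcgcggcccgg
CCAAT is the core of the box bound by NF-Y, and GGGCGG the core of the GC box bound by Sp1-type factors. Among 35116 promoters of the same table, read over the 126 bases before the start, 21.1% held CCAAT and 34.6% held GGGCGG on either strand, so both matches are common and describe letters only.

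SPARC was detected on 2 arrays, both untreated SNU-5. Its probe read 5.57, 5.14 and 4.70 in SNU-5 controls and 4.74, 4.70 and 4.40 with crizotinib, at least 1.19-fold lower against the detection limit, with groups that overlapped. In MKN45 it read 4.51, 4.48 and 4.62 in controls and 4.42, 4.53 and 4.38 with crizotinib, all undetected. Untreated SNU-5 was at least 1.21-fold above untreated MKN45. As with COL1A2, the highest SNU-5 control was replicate 1 and the lowest replicate 3. SPARC lies on chromosome 5 at 151661096 to 151686915.

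Fibronectin, on chromosome 2 at 215360865 to 215436068, was close to undetected at its 3 probes. ILMN_1675646 and ILMN_2366463 were each detected on 1 array, SNU-5 crizotinib replicate 3, at 5.13 and 4.93, and ILMN_1778237 on none, with all values between 4.22 and 4.35. At all 3 probes the treated and control groups overlapped in both lines, and the untreated lines overlapped too.

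The thresholds of a call, taken from the study's methods, were 0.001 for the unadjusted p, 0.05 for the adjusted p and 2 for the fold. Among the 6 tested genes, DCN and LUM were called higher and COL1A2 lower with crizotinib in SNU-5, where 14.5% of all 12760 tested genes were called, 7.08% higher and 7.46% lower. In MKN45 none of the 6 was called, beside 14.5% of all 12760 tested genes, 7.32% higher and 7.19% lower. The random variance test of the methods was not run. A limma fit of each line on its own, to the deposited log2 values of all probes, called 0 of the genes in MKN45. That fit called 1931 of all 47323 probes in MKN45. Between untreated lines, LUM and COL1A2 were called higher in SNU-5 and COL4A1 and COL4A2 higher in MKN45, beside 21.6% of all genes, 10.9% higher and 10.7% lower in SNU-5. Groups that do not overlap are common with 3 arrays each: over all genes the share was 49.1% between MKN45 groups and 51.7% between untreated lines. Since the genes were chosen with these results known, nothing is read from their counts.

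**Figure D3:**
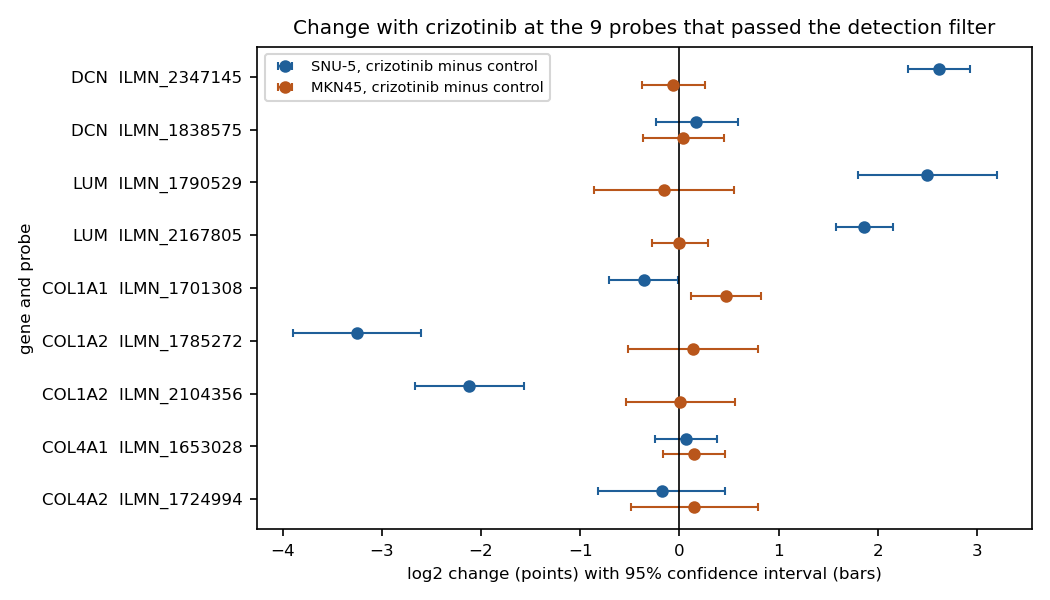
Log2 change with crizotinib (horizontal axis, points) and its 95% confidence interval (bars) at the 9 probes detected on at least 3 arrays, in SNU-5 (blue) and MKN45 (orange), from limma with 3 arrays per group. In SNU-5 both LUM probes and 1 DCN probe lie to the right of 0 and both COL1A2 probes to the left, while the MKN45 points lie between -0.15 and 0.47.

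The change in SNU-5 minus the change in MKN45 was 2.68 for DCN (SE 0.21, 95% confidence interval 2.23 to 3.12), 2.65 for LUM (SE 0.46) and -3.39 for COL1A2 (SE 0.43, 95% confidence interval -4.31 to -2.46). All 3 were called, beside 6.75% of all genes, 3.32% with a higher and 3.43% with a lower change in SNU-5. Without SNU-5 control replicate 1 the values were 2.82 for DCN, 2.13 for LUM and -2.93 for COL1A2. The difference was -0.83 for COL1A1 (SE 0.23, 95% confidence interval -1.32 to -0.34), -0.08 for COL4A1 (95% confidence interval -0.53 to 0.36) and -0.33 for COL4A2 (95% confidence interval -1.24 to 0.57), none of them called. In MKN45 the brightest DCN probe and both COL1A2 probes were below detection with and without the drug, so a lower level could not have been seen at these probes.

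Without background correction the changes of probes that start near background were smaller, by construction of the scale, and every call stood. DCN changed by 1.69 in SNU-5 in place of 2.62 and COL1A2 by -2.22 in place of -3.25, while LUM, well above background in both groups, changed by 2.45 in place of 2.50. Between untreated lines LUM differed by 3.80, COL1A2 by 2.33, COL4A1 by -4.06 and COL4A2 by -1.80 on that scale. With background correction but without SNU-5 control replicate 1, these differences were 5.39, 2.94, -5.19 and -2.89.

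Genes whose pattern over the 12 arrays lay nearest to each of the 6 genes were named by Pearson correlation of log2 signals, as a description, since the arrays fall into 2 lines and share their normalization. Nearest to DCN were CSPG4 (r = 0.996, Spearman rho 0.76), PTH1R (0.996, rho 0.87) and TPPP3 (0.993, rho 0.62), and 51 genes reached an r of 0.95. Nearest to LUM were OSTM1 (r = 0.998, rho 0.99), TMC5 (0.995, rho 0.94) and LOC101929633 (0.995, rho 0.94), of 295 at that level. Nearest to COL1A2 were PAQR9 (r = 0.992, rho 0.79), PADI3 (0.991, rho 0.77) and THBD (0.988, rho 0.72), of 32. The type IV chains had many such neighbours, 432 for COL4A1, led by GPR160, HORMAD1 and RAB38 (r = 0.999 each), and 285 for COL4A2, led by HMGB3 (r = 0.99). COL1A1 had 0, its nearest being KRT83 (r = 0.905), HILPDA (0.904) and VEGFA (0.893).

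The other genes of the matrix were taken from 6 lists of collagens, proteoglycans, assembly enzymes, basement membrane components, matricellular glycoproteins and receptors, 165 genes in all, of which 160 had a probe and 102 were tested. With crizotinib, 17 rose and 16 fell in SNU-5 at an adjusted p under 0.05 (limma with Benjamini-Hochberg adjustment over all probes), with 69 not passing, and 17 rose, 14 fell and 71 did not pass in MKN45. Over all tested genes, 18% passed as higher and 17.2% as lower in SNU-5, and 17.9% each way in MKN45. The median change of the 102 genes was 0.03 in SNU-5 and -0.02 in MKN45, beside 0.02 and 0 over all genes. Matrix genes as a whole thus moved in both directions at about the rate of all genes.

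**Figure D4:**
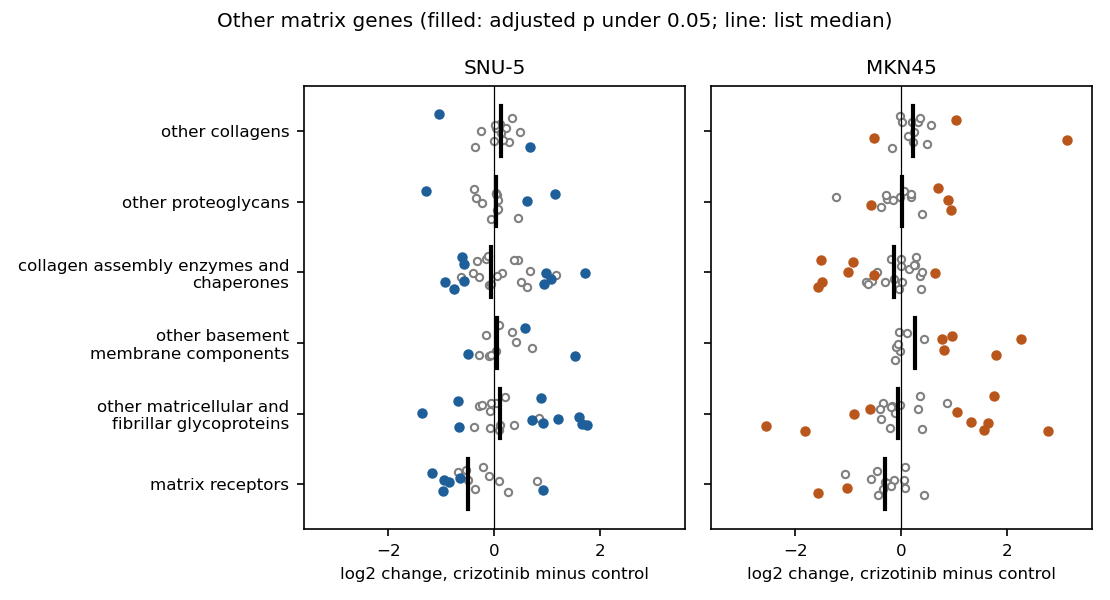
Log2 change with crizotinib (horizontal axis) of the 102 tested matrix genes outside the set of 9, by list (rows) and line (panels), filled at an adjusted p under 0.05, with a bar at the median of each list. Genes move both ways in most lists; the receptors have the lowest median, -0.50 in SNU-5 and -0.30 in MKN45.

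Of the 14 other collagens tested, 1 rose and 1 fell in SNU-5 and 2 rose and 1 fell in MKN45, with median changes of 0.12 and 0.23. COL16A1, a fibril-associated collagen, rose in MKN45 from between 5.00 and 5.93 to between 8.26 and 8.67, by 3.12 (SE 0.23, adjusted p = 5.4e-07), beside 0.48 in SNU-5 (adjusted p = 0.15). COL13A1, a transmembrane collagen, fell in SNU-5 by 1.05 (SE 0.18, adjusted p = 0.00054). COL5A2, which joins type I fibrils, was undetected in SNU-5 controls and at least 1.26-fold higher with crizotinib (adjusted p = 0.0074), opposite in direction to COL1A2. Between untreated lines COL6A1, a chain of microfibrillar type VI collagen, was higher in SNU-5 (9.23 against 5.55, adjusted p = 1.8e-06), and COL18A1, a basement membrane collagen, was at least 3.84-fold higher in MKN45 (adjusted p = 1e-07), as the type IV chains were.

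Among 14 other proteoglycans tested, 2 rose and 1 fell in SNU-5 and 3 rose and 1 fell in MKN45. SDC1 (syndecan 1), a cell surface heparan sulfate proteoglycan, fell in both lines, by 1.30 in SNU-5 (SE 0.16, adjusted p = 3.3e-05) and by 0.57 in MKN45 (SE 0.16, adjusted p = 0.013). The MKN45 value did not pass without MKN45 control replicate 3 (adjusted p = 0.053) or MKN45 crizotinib replicate 1 (adjusted p = 0.063). TGFBR3 (betaglycan), a co-receptor for TGF-beta, rose in SNU-5 by 1.14 (SE 0.20, adjusted p = 0.00063), and SDC4 rose in MKN45 by 0.94 (SE 0.17, adjusted p = 0.00096). GPC4, a membrane-anchored glypican, was at least 42.1-fold higher in untreated MKN45 (adjusted p = 9.7e-12), with no SNU-5 array detected.

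Of the 25 enzymes and chaperones of collagen assembly, 4 rose and 5 fell in SNU-5 and 1 rose and 6 fell in MKN45. LOXL4, a lysyl oxidase that crosslinks collagen, rose in SNU-5 from between 9.04 and 9.66 to between 10.90 and 11.03, by 1.71 (SE 0.17, adjusted p = 6.4e-06), and was undetected in MKN45. PCOLCE2, an enhancer of procollagen processing, fell in both lines, by 0.58 in SNU-5 (adjusted p = 0.012) and at least 2.28-fold in MKN45 (adjusted p = 8e-06). COLGALT1, which glycosylates collagen, fell by 0.58 in SNU-5 (adjusted p = 0.032) and by 1.50 in MKN45 (adjusted p = 4.9e-05). The SNU-5 falls were the less stable, with an adjusted p of 0.057 for PCOLCE2 without crizotinib replicate 1, and for COLGALT1 of 0.1 without control replicate 1, 0.08 without control replicate 2, and 0.08, 0.086 and 0.07 without crizotinib replicate 1, 2 and 3. PLOD2 and P3H2, which hydroxylate lysine and proline in collagen, were higher in untreated MKN45 (10.63 against 5.03, adjusted p = 7e-10, and 10.65 against 5.27, adjusted p = 1.8e-09), and P3H2 fell there with crizotinib by 1.57 (SE 0.26, adjusted p = 0.00045). The brightest PLOD2 probe changed by -0.66 in MKN45 with crizotinib (adjusted p = 0.058). Its other probes gave -0.90 (adjusted p = 0.0048) and -1.08 (adjusted p = 0.0093). For untreated SNU-5 minus untreated MKN45 those probes gave smaller differences, -2.55 (adjusted p = 3.9e-07) and -2.77 (adjusted p = 3.1e-06).

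Of the 12 other basement membrane components, 2 rose and 1 fell in SNU-5, and 5 rose and 0 fell in MKN45 at an adjusted p under 0.05. LAMB3, a chain of laminin-332, rose in MKN45 from between 8.78 and 8.99 to between 10.70 and 11.40, by 2.26 (SE 0.19, adjusted p = 1.5e-06), and by 1.04 at its second probe (adjusted p = 0.0068). HSPG2 (perlecan) was undetected in MKN45 controls and at least 1.38-fold higher with crizotinib (adjusted p = 0.00028), and FREM2 rose by 0.77 (adjusted p = 0.00049). The laminin chains LAMA4 and LAMA2 were higher in untreated SNU-5, at least 3.18-fold (adjusted p = 5.2e-07) and at least 2.62-fold (adjusted p = 9.3e-07), opposite to the type IV collagen chains. LAMB3 was higher in untreated MKN45, as those chains were (8.87 against 4.66, adjusted p = 8.4e-10). Its second probe differed by -0.33 (adjusted p = 0.35). In the whole list, 4 components were higher in untreated SNU-5 and 3 in untreated MKN45 at an adjusted p under 0.05.

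Among 22 matricellular and fibrillar glycoproteins tested, 7 rose and 3 fell in SNU-5 and 6 rose and 4 fell in MKN45. MATN2 (matrilin 2) rose in both lines, by 1.75 in SNU-5 (SE 0.19, adjusted p = 1.6e-05) and by 2.77 in MKN45 (SE 0.19, adjusted p = 3e-07), and THBS3 (thrombospondin 3) by 1.66 (adjusted p = 1.2e-05) and 1.63 (adjusted p = 1.5e-05). ECM1 fell in MKN45 from between 7.29 and 7.61 to between 4.75 and 5.01, by 2.56 (SE 0.15, adjusted p = 9.9e-08), and by 0.56 at its second probe (a change of -0.56, adjusted p = 0.015). TGFBI, a secreted protein that binds collagen and integrins, was higher in untreated SNU-5 (9.76 against 5.16, adjusted p = 2.4e-10), and FBN2 (fibrillin 2) in untreated MKN45 (8.55 against 4.77, adjusted p = 4.3e-09).

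Of the 15 matrix receptors, 1 rose and 5 fell in SNU-5 and 0 rose and 2 fell in MKN45. ITGA6, a laminin-binding integrin chain, fell by 1.17 in SNU-5 (SE 0.21, adjusted p = 0.00077) and by 1.57 in MKN45 (SE 0.21, adjusted p = 7.7e-05). Its second probe gave -0.12 in SNU-5 (adjusted p = 0.69) and -0.87 in MKN45 (adjusted p = 0.0019). ITGB5, a chain of a vitronectin receptor, fell in SNU-5 by 0.96 (adjusted p = 0.0017), and its other probes gave -1.22 and -1.40. CD44, the receptor of hyaluronan, fell in SNU-5 by 0.85 (adjusted p = 0.0026), while its other probes gave 0.03 (adjusted p = 0.97) and -0.92 (adjusted p = 0.034). ITGA5, the main fibronectin receptor chain, was at least 1.44-fold lower with crizotinib in SNU-5 (adjusted p = 0.0087), where fibronectin itself was mostly undetected. For untreated SNU-5 minus untreated MKN45, CD44 differed by -3.12 (adjusted p = 1e-08) and ITGA5 by -1.56 (adjusted p = 0.00019). ITGA3 was higher in untreated SNU-5, by 1.79 (adjusted p = 0.00031). The other CD44 probes gave -1.70 (adjusted p = 0.001) and -2.96 (adjusted p = 3.3e-06) between untreated lines.

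The change of 9 of the 102 other matrix genes was higher in SNU-5 than in MKN45 and that of 10 was lower, at an adjusted p under 0.05 for the difference of the changes, beside 5.82% and 6.14% of all genes. The assembly enzymes, 25 of the 102 genes, held 5 of the 9, and 0 of their number were lower. Of the 5, PCOLCE2 and COLGALT1 fell in both lines, and more in MKN45. The difference of PCOLCE2 did not pass without background correction (0.43, adjusted p = 0.12). That of COLGALT1 did not pass when any of several single arrays was left out. Untreated, 24 of the 102 genes were higher in SNU-5 and 26 in MKN45, beside 22.7% and 22.5% of all genes.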

How the data were processed

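RNA of SNU-5 and MKN45 cells was measured on 12 arrays, 3 in each of 4 groups taken from the sample labels with their replicate numbers. The authors deposited raw signal intensities of 47323 probes per array, each with a detection p-value, and a table of log2 values that they had quantile normalized with limma. These log2 values differed by at most 0.005 from a quantile normalization of the deposited intensities. Sample columns left unused numbered 0. The scanner software is not given in the sources used here.

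Intensities were processed with neqc of limma 3.58.1 in R 4.3.3 (normexp background correction from the detection p-values, offset 16, quantile normalization, log2). Probes detected at a p under 0.05 on at least 3 arrays were tested, 23525 probes (49.7%) naming 12760 genes. A limma model (lmFit, eBayes) with 4 group means had 8 residual and 5.17 prior degrees of freedom, and p-values were adjusted by Benjamini-Hochberg over all probes tested. A gene is represented by its brightest tested probe. The platform table gave 1 symbol for 30113 probes, several for 8 and none for 17202, and for 30074 of the 30121 probes with a gene the gene ID was found in the RefSeq table of GRCh38.p14. That table of promoters held 5 of the 9 genes.

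The 9 genes and the lists were chosen with earlier results of these data known. Named were all probes of the 9 genes, the genes most correlated with each of them, and from each list up to 3 genes with the smallest adjusted p for the drug and for the untreated lines. As alternatives, the background correction was left out, or the deposited log2 values were taken as they are. The filter was dropped or set at a stricter detection p of 0.01. Further alternatives were separate fits per line, a replicate block, other probes and leaving out each array. In place of the random variance test named in the methods, limma was fitted to each line on the deposited log2 values of all probes. The fit was tested on simulated data. Precision is limited by 3 arrays per group.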

Additional observations from a re-analysis of the deposited data

Results flagged for a closer look

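Among the 9 matrix genes and the other matrix genes named by rule, 9 had a change with crizotinib in SNU-5 that differed from that in MKN45 at the thresholds of a call. Over all genes the share was 6.75%. The genes were picked with results of these arrays known or by their smallest adjusted p, so nothing is read from the count. Among the matrix genes chosen with results known, the difference (change in SNU-5 less change in MKN45) was 2.68 for DCN (SE 0.21), 2.65 for LUM (SE 0.46) and -3.39 for COL1A2 (SE 0.43), given without a p-value. The brightest DCN probe and both COL1A2 probes were detected on no MKN45 array, so these values set a change in SNU-5 against a signal at background.

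Among the other matrix genes, the difference was tested with limma. Higher in SNU-5 than in MKN45 was the change of TGFBR3, by 1.43 (SE 0.28, adjusted p = 0.0051), of LOXL4, by 1.69 (SE 0.24, adjusted p = 0.00055), of P3H2, by 2.18 (SE 0.37, adjusted p = 0.0019), and of ECM1, by 2.66 (SE 0.22, adjusted p = 6.9e-06). LOXL4 was undetected in MKN45, and this ECM1 probe in SNU-5, where a second ECM1 probe, detected on 10 of the 12 arrays, gave a difference of 0.83 (adjusted p = 0.031). The change of COL16A1 was lower in SNU-5, with a difference of -2.64 (SE 0.33, adjusted p = 2e-04), as was that of LAMB3, with -2.36 (SE 0.27, adjusted p = 9.7e-05). LAMB3 was detected on 1 of the 6 SNU-5 arrays, and its second probe gave -1.11 (adjusted p = 0.074). Outside the rule for named genes, and picked after their values were seen, THBS1 (2.66, SE 0.47, adjusted p = 0.0027) and LTBP3 (-1.73, SE 0.31, adjusted p = 0.0027) also met these thresholds.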

How the results depend on the processing

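No called value changed sign under any alternative. Of values not called, COL4A2 in MKN45 ran from -0.14 to 0.53, the difference for COL4A1 from -0.15 to 0.01 and COL1A1 between untreated lines from -0.14 to 0.11 when single arrays were left out, and DCN between untreated lines was -0.20, and its change in MKN45 0.04, at its other tested probe. Of the 9 genes, 3 were called in SNU-5, 0 in MKN45, 3 for the difference and 4 between untreated lines. Over all genes the shares were 14.5%, 14.5%, 6.75% and 21.6%. The counts of the 9 genes were the same under every alternative run on the whole table. Since these genes were chosen with the results known, nothing is read from that. DCN was not called at its other tested probe (0.17 in SNU-5). Counts of other matrix genes moved by over 1.5 times in few cases. Of genes that fell in SNU-5, 10 in place of 16 passed when each line was fitted on its own, and 10 without SNU-5 crizotinib replicate 1. For the difference of the changes, 14 in place of 9 were higher without SNU-5 control replicate 1. In place of 10, 5 were lower without SNU-5 crizotinib replicate 1, MKN45 crizotinib replicate 1 or MKN45 crizotinib replicate 2, and 6 without SNU-5 crizotinib replicate 2 or MKN45 control replicate 2, the cause not being tested. Over all arrays left out in turn, 13 to 23 rose and 10 to 17 fell in SNU-5, 16 to 20 rose and 10 to 20 fell in MKN45, 6 to 14 were higher and 5 to 11 lower for the difference, and 20 to 26 were higher and 24 to 27 lower between untreated lines. These refits kept the normalized values of all 12 arrays. COLGALT1 and LAMA2 in SNU-5 and COL18A1 in MKN45 no longer passed an adjusted p under 0.05 in several alternatives. The deviations of same-numbered control and treated arrays from their group means correlated at 0.10, 0.01 and 0.45 in SNU-5. In MKN45 these correlations were 0.11, 0.33 and 0.11. Between arrays of different number they ran from -0.36 to 0.26 over both lines, and not every array correlated best with its own number. The labels do not say whether same-numbered arrays were paired, and with 3 arrays per group these correlations cannot decide it. A replicate block gave 19 rises and 16 falls in SNU-5, 18 and 18 in MKN45, 8 higher and 11 lower for the difference, and 25 and 28 between untreated lines. Signals at or near background limit the values of DCN, COL1A1, COL1A2, SPARC, FN1 and BGN.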
